A study of Mus musculus with 12 samples.

Results

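The genes described here encode the respiratory chain and the ATP synthase, measured by bulk RNA sequencing in pancreatic islets of Tg7 mice and their littermate controls. They are the rows of the count table whose mouse symbol starts with Nduf plus a subunit letter and number, Uqcr, Cox4 to Cox8 or Atp5, or is Sdha to Sdhd, together with the mt-Nd, mt-Cytb, mt-Co and mt-Atp genes of mitochondrial DNA. Of 101 rows with such a symbol, 1 pseudogene and 5 rows with fewer than 50 counts over all libraries were left out, namely Atp5l2, Cox7b2, Cox8b, Cox8c and a second Ndufb8 row. This left 95 of 37991 genes, of which 82 are nuclear and 13 mitochondrial, and all 95 passed the filter on low counts. Grouped by their symbols, the nuclear genes comprise 37 of complex I, 4 of complex II, 8 of complex III, 15 of complex IV and 15 of complex V, plus 3 that carry the name but are not subunits (Cox4nb, Atp5s and Atp5sl). The mitochondrial genes comprise 7 of complex I, 1 of complex III, 3 of complex IV and 2 of complex V. Subunits listed under other symbols, such as Usmg5 and 2010107E04Rik of the ATP synthase, do not match the rule and are named only as related genes.

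Islets came from male C57BL/6 mice of 4 groups with 3 libraries each. Tg7 mice overexpress the microRNA miR-7 in β-cells from a transgene, and Wt mice are littermates without it, both studied at 2 weeks (2w) and 12 weeks (12w) of age with no other treatment. Each library was made from islets pooled from several animals, so its value is already an average and the p-values below measure the spread between such pools. The study describes the 2w Tg7 animals as normoglycaemic and the 12w Tg7 animals as hyperglycaemic, so at 12w the transgene and the raised blood glucose cannot be told apart. The 12w Wt libraries carry the replicate numbers 1, 2 and 4.

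The respiratory chain lies in the inner mitochondrial membrane. Complex I takes electrons from NADH and complex II from succinate, ubiquinone carries them to complex III, cytochrome c to complex IV, and complex IV passes them to oxygen. Complexes I, III and IV pump protons, and complex V, the ATP synthase, lets them flow back to make ATP. In the β-cell the ATP made from glucose closes potassium channels and starts insulin secretion. Except for complex II, which is wholly nuclear, each complex combines subunits encoded in the nucleus with a few encoded in mitochondrial DNA, where the genes are transcribed together from each strand by the RNA polymerase Polrmt.

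Libraries held 11610697 to 17515758 counts. Levels below are in CPM, read counts relative to library size, with library sizes scaled by edgeR's TMM factors, which are fitted to all genes. β-cell markers (6 genes, Ins1 and Ins2 among them) summed to 109000 to 178000 CPM in Wt and 27000 to 52000 CPM in Tg7 at 2w, and to 195000 to 478000 CPM and 99600 to 105000 CPM at 12w. The 5 stellate and fibroblast markers went the other way, with 217 to 316, 403 to 522, 33.9 to 40.9 and 253 to 285 CPM, and the 4 endothelial markers were at 254 to 350 CPM in 12w Wt and 554 to 614 CPM in 12w Tg7. In bulk islet RNA, fewer cells of a type and less RNA per cell cannot be told apart. The 12w Wt replicate 1 stood apart in mitochondrial ribosomal RNA, with 3759 CPM of mt-Rnr1 against 434.6 and 414.7 in replicates 2 and 4. Its nuclear respiratory chain genes had a median log2 difference of 0.38 from the other replicates, and that of 12w Wt replicate 4 was -0.47. These offsets were shared by protein-coding genes under 1000 exon bases, at 0.318 in replicate 1 and -0.435 in replicate 4. Coding genes over 4000 bases were at -0.112 and 0.222. The mature miR-7 is not measured by this table, and its host row Mir7-2 stayed at or below 1.26 CPM in every library, so the rows do not check the transgene.

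The microRNA that defines the Tg7 line and the stretches of respiratory chain transcripts that its seed could pair with are shown first, because pairing with the seed is the best known mark of a microRNA's targets. Other kinds of site and coding sequence were not searched. RefSeq gives the mature miR-7a as below (Mir7-2, GRCm38.p6 chr7:78888295-78888317, plus strand), with bases 2 to 8, the seed, in capitals.
mmu-miR-7a-5p: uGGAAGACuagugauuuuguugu
The 7 letters that pair with the seed, GTCTTCC, were found in the annotated 3′ UTR of 3 of 82 nuclear genes (3.7%), against 14.2% of 14632 tested genes with an annotated 3′ UTR. The respiratory chain genes have short 3′ UTRs, with a median of 205 bases against 1132. A pair of these stretches, in NCBIM37 coordinates with the matching letters in capitals, are those of Ndufa11 (chr17:56862766-56862795, plus strand) and Sdhd (chr9:50404514-50404543, minus strand).
Ndufa11: accatggctttGTCTTCCatgggtctgaca
Sdhd: agtgataaactGTCTTCCcaccgtgggagt
None of the 3 genes passed the test in Tg7 islets at either age. The log2 fold changes at 2w and 12w were -0.06 and -0.16 for Ndufa11 and 0.10 and -0.23 for Sdhd.

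Promoters of 67 of the 82 nuclear genes are in the RefSeq table (GRCm38.p6, 250 bases before to 50 after the start). The letters GCGCANGCG, the core of sites bound by nuclear respiratory factor 1 (NRF1), were present on either strand in 20 of the 67 (29.9%), against 7.03% of 27025 promoters of the same length. The YY1 letters AAGATGGCG were in 8 (11.9% against 1.64%), the ERR letters TCAAGGTCA in 2 (3.0% against 0.47%) and the ETS letters CCGGAAGT in 5 (7.5% against 4.31%). Of the genes that rose with age in Wt islets (below), 3 hold the NRF1 letters, and the 250 bases before their starts are shown with the letters in capitals: Ndufs5 (chr4:123718187-123718436), Atp5k (chr5:108434400-108434649, where 2 matches on opposite strands overlap) and Atp5l (chr9:44920743-44920992), all on the minus strand and written 5′ to 3′ along the gene.
Ndufs5: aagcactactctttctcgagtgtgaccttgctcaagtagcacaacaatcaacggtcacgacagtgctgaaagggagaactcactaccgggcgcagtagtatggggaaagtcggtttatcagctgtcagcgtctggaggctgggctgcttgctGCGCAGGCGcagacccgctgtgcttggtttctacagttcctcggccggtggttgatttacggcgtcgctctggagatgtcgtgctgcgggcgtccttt
Atp5k: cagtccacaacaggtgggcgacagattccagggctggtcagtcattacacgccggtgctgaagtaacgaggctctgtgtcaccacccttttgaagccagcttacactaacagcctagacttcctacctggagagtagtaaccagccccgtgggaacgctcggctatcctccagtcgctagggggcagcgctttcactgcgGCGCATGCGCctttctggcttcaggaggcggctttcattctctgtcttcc
Atp5l: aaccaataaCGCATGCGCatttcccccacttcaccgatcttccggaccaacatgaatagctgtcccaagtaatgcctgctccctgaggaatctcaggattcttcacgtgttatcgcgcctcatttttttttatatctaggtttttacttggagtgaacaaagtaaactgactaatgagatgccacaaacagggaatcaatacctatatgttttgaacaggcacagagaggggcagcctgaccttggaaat
The letters were in 3 of 12 genes that passed the age test in either direction and have a promoter entry, and in 17 of 55 that did not pass it.

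Transcripts of the mitochondrial genes were far more abundant than those of the nuclear genes. Per kilobase of exon, the median in 2w Wt islets was 1958 CPM for mitochondrial and 35.8 CPM for nuclear complex I genes, and 5589 and 83.0 CPM for complex IV. The highest level was that of mt-Co2, which encodes the copper-bearing subunit that takes electrons from cytochrome c, at 6605 CPM per kilobase in 2w Wt and 11750 in 12w Wt. Among the nuclear genes of 2w Wt islets, Cox4i1 of complex IV (269.7), Atp5l of the ATP synthase (223.5) and Ndufa4 (168.5) stood highest within their groups. Ndufa4 is counted with complex I by its symbol, although its product is known as a subunit of complex IV. The mt-Nd4l gene, at 5.19 CPM per kilobase, stood far below its neighbour mt-Nd4 at 2874, with which it shares 7 bases. A near-identical sequence elsewhere in the genome covers 100% of mt-Nd4l, and another covers 63.6% of mt-Nd4. Such copies also cover 100% of mt-Co2, the gene with the highest level. Whether the low mt-Nd4l value reflects its transcript level or the mapping and counting of its reads was not tested.

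Together the 13 mitochondrial genes took 3.66% of all counts in 2w Wt, 4.43% in 2w Tg7, 4.22% in 12w Wt and 3.63% in 12w Tg7, while the 82 nuclear genes took 0.711%, 0.885%, 0.674% and 0.816%. For each count of a nuclear gene there were 5.16, 4.83 and 5.47 counts of a mitochondrial gene in the 2w Wt libraries and 5.02, 5.64 and 4.52 in 2w Tg7. The ratio was 6.22, 5.74 and 6.84 in 12w Wt and 4.96, 4.40 and 4.01 in 12w Tg7. The 2w groups overlapped, whereas the 12w Tg7 libraries all lay below the 12w Wt libraries (4.46 ± 0.482 against 6.27 ± 0.552, mean ± SD, n = 3 each). This ratio is taken within a library and does not depend on the scaling between libraries.

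**Figure D1:**
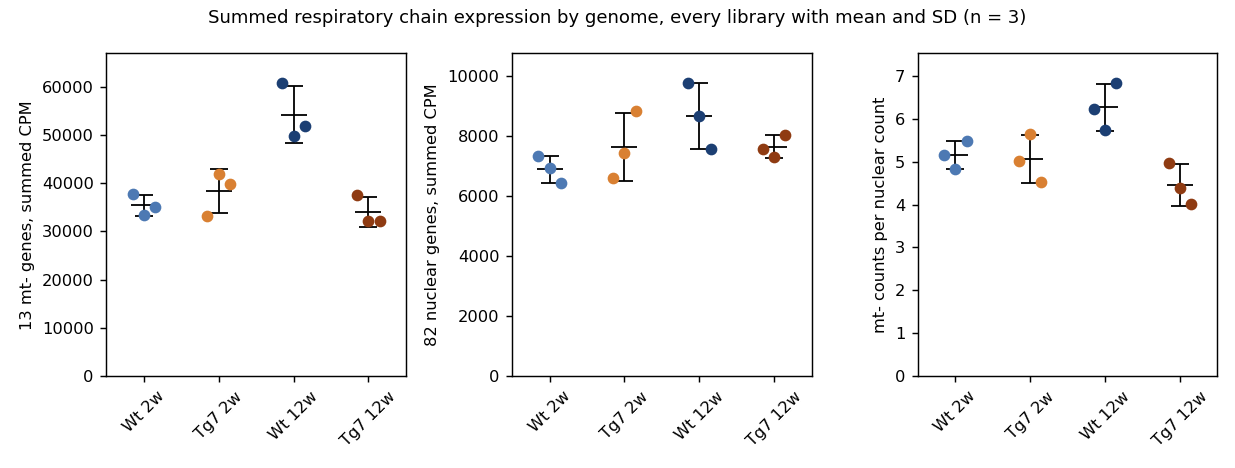
Summed level of the 13 mitochondrial genes and of the 82 nuclear respiratory chain genes (CPM on TMM-scaled library sizes) and the mitochondrial counts per nuclear count, by library in the 4 groups (points; bars are the mean ± SD, n = 3). The mitochondrial sum averaged 54200 CPM in 12w Wt and 34000 CPM in 12w Tg7, and the nuclear sum 8686 and 7645 CPM.

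At 2 weeks, Tg7 and Wt islets differed in few respiratory chain genes. None of the 82 nuclear genes rose in Tg7 at an adjusted p under 0.05, where 6.07% of all 15961 genes tested rose. By edgeR, 8 of the 82 and 4294 of all 15961 had an unadjusted p under 0.05 in either direction. Cox6a2 and Ndufc2 fell, 2 of 82 where 4.55% of all genes did. The median log2 fold change was 0.19 over nuclear genes, with 66 of 82 above 0, against 0.03 over all genes tested and 0.18 over 604 tested protein-coding genes with under 1000 exon bases. Without 2w Tg7 replicate 3 it was 0.04, with 47 of 82 above 0, and with length offsets 0.09. Without 2w Tg7 replicate 1 it was 0.31. By complex the nuclear medians were 0.17 (I), 0.04 (II), 0.11 (III), 0.22 (IV) and 0.19 (V). None of the 13 mitochondrial genes passed the test in edgeR's quasi-likelihood fit, with DESeq2, or at an unadjusted p under 0.05, and their median was 0.10. Fold changes of the 13 ran from -0.07 for mt-Nd6 to 0.22 for mt-Atp6, and mt-Atp6 alone had groups that did not overlap.

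Ndufc2 encodes an accessory subunit of the membrane arm of complex I and lies at NCBIM37 chr7:104548513-104556312. It stood at 85.0, 72.8 and 81.3 CPM in 2w Wt libraries and at 53.2, 63.3 and 61.3 CPM in 2w Tg7. The groups did not overlap, and the log2 fold change was -0.43 ± 0.13 (SE, edgeR adjusted p = 0.0459). This call is fragile, since it was kept under 8 of 22 alternative settings, in which the value ranged from -0.55 to -0.26. At 12w its level was 97.3 to 116.6 CPM in Wt and 83.4 to 106.4 CPM in Tg7, and the groups overlapped. The largest shifts that did not pass the 2w test were 1.24 for Cox6b2 (adjusted p = 0.268), 0.66 for Atp5sl (0.055) and -1.65 for Cox4i2 (0.105), by edgeR's quasi-likelihood test with Benjamini-Hochberg adjustment as throughout.

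At 12 weeks, most mitochondrial genes and few nuclear genes passed the test in Tg7 islets. Of 13 mitochondrial genes, 8 fell and 0 rose, where 11.2% of all genes tested fell and 12.5% rose, and their median log2 fold change was -0.67. Of 82 nuclear genes, Cox6a2 and Uqcrq fell and Ndufa1 rose. The nuclear median was -0.16 against -0.01 over all genes, with 71 of 82 below 0. It was -0.08, with 29 of 82 above 0, without 12w Wt replicate 1 and -0.27 without 12w Wt replicate 4. All 13 mitochondrial genes lay below 0, 12 of them with groups that did not overlap, the exception being mt-Nd4l. Groups were apart for 12 of 82 nuclear genes, and the share of all genes with groups apart was not counted. The mitochondrial median lay 0.51 below the nuclear median at 12w, or 0.27 without 12w Wt replicate 4, against 0.09 below it at 2w.

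Scaling bears on these directions. With library size alone in place of TMM factors, the median of all genes moved to 0.43 at 12w and to 0.19 at 2w, and that of the Wt age comparison to -0.35. The nuclear median at 12w then changed sign, from -0.16 to 0.31, while that of the mitochondrial genes stayed below 0 at -0.22. Relative to the median of all genes, the mitochondrial genes lay at -0.66 with TMM factors and -0.66 with library size alone, and the nuclear genes at -0.15 and -0.13. Of the calls over all genes at 12w, 52.7% were higher in Tg7 with TMM factors, 93.5% with library size alone and 64.7% with upper-quartile factors. At 2w the share was 57.2% with TMM factors and 84.0% with library size alone, and with age 1261 genes rose and 1263 fell with TMM factors, while 7.89% of the calls were rises with library size alone.

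**Figure D2:**
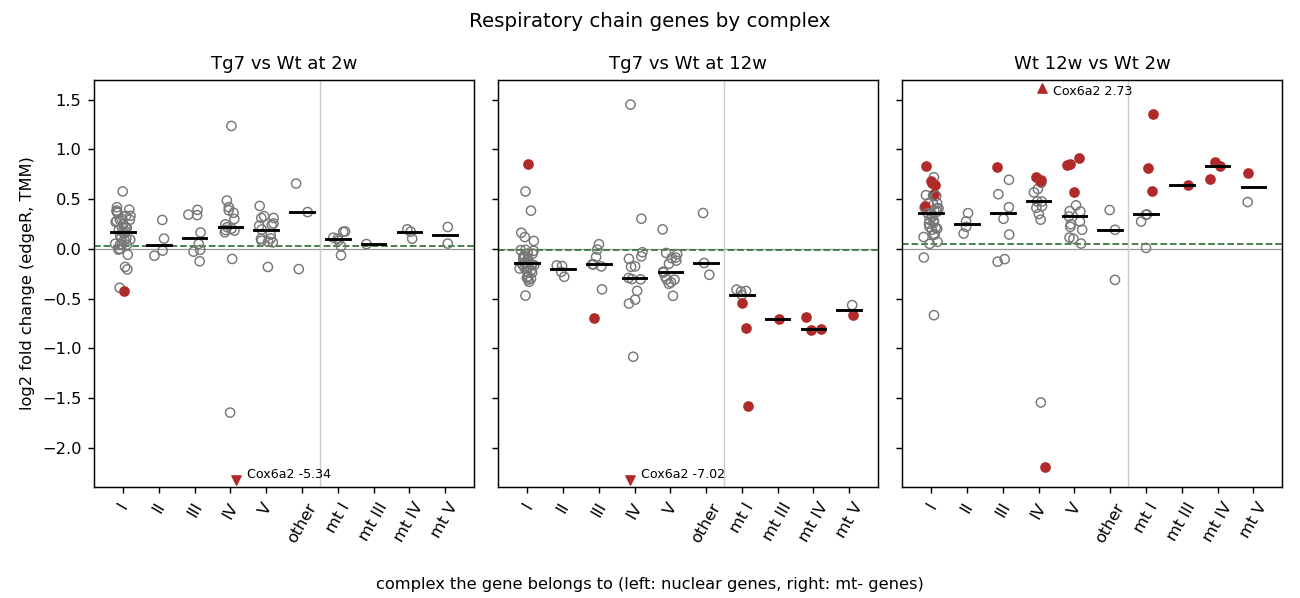
Log2 fold change of each gene by complex and genome in 3 comparisons (Tg7 against Wt at 2w and at 12w, and Wt at 12w against 2w). Filled points passed an edgeR adjusted p under 0.05, black bars are medians, the dashed line is the median of all genes tested, and triangles mark Cox6a2 outside the axis at -5.34, -7.02 and 2.73. The mitochondrial median was 0.10, -0.67 and 0.64 and the nuclear median 0.19, -0.16 and 0.37, the latter 0.36, 0.31 and -0.05 with library size alone.

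Within the mitochondrial genome the 3 complex IV genes fell together. The mt-Co1 gene, which encodes the catalytic subunit with the haem and copper centre that reduces oxygen, lies at NCBIM37 chrM:5328-6872. It stood at 14980, 13420 and 13300 CPM in 12w Wt and at 9025, 7084 and 7668 CPM in 12w Tg7. No Tg7 library reached the lowest Wt library, and the log2 fold change was -0.81 ± 0.16 (adjusted p = 0.00258). For mt-Co2 it was -0.69 ± 0.18 (0.0121), and for mt-Co3, a core subunit without metal centres, -0.81 ± 0.20 (0.00993). With library size alone all 3 calls were lost. Those of mt-Co2 (adjusted p = 0.0698) and mt-Co3 (0.0545) were also lost without 12w Tg7 replicate 2, and that of mt-Co3 without 12w Tg7 replicate 3 (0.0503).

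Cytochrome b, encoded by mt-Cytb and the site where complex III oxidises ubiquinol, was at 7717, 6010 and 6436 CPM in 12w Wt and 4484, 4091 and 3807 CPM in 12w Tg7. The groups were apart, with a log2 fold change of -0.70 ± 0.16 (adjusted p = 0.00626). The mt-Atp6 gene encodes subunit a, the proton channel of the ATP synthase. It was at 813.1, 887.8 and 1067 CPM in 12w Wt and 658.8, 534.6 and 546.7 CPM in 12w Tg7. Here too the groups were apart (-0.67 ± 0.14, 0.00396). Its partner mt-Atp8, which shares 43 bases with it, had -0.57 ± 0.20 and an adjusted p of 0.0506. The mt-Cytb and mt-Atp6 calls were lost with library size alone. They were also lost with the replicate number as a block in the edgeR fit (adjusted p = 0.0712 and 0.0801).

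The 7 mitochondrial complex I genes, which build the proton-pumping membrane arm, were less uniform. Of these, mt-Nd3 (-0.80 ± 0.19, adjusted p = 0.00871), mt-Nd4 (-0.54 ± 0.16, 0.0267) and mt-Nd6 fell. The mt-Nd3 call was lost with library size alone (edgeR adjusted p = 0.126). The mt-Nd4 call was kept under 15 of 22 alternatives and lost without any 1 of the 12w Tg7 libraries (adjusted p of 0.0599, 0.0833 and 0.117). Just outside the threshold were mt-Nd2 (-0.46 ± 0.16, 0.0544) and mt-Nd1 (-0.42 ± 0.15, 0.0548), and further out mt-Nd5 (-0.43 ± 0.19, 0.119) and mt-Nd4l (-0.41 ± 0.38, 0.49). The last of these rests on 1.24 to 2.47 CPM at 12w. For mt-Nd1, 12w Wt libraries held 4587, 3256 and 3808 CPM and Tg7 libraries 3074, 2838 and 2769 CPM.

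The mt-Nd6 gene had the largest fold change of the 13. It is transcribed from the strand opposite to the other 12 and lies at NCBIM37 chrM:13552-14070, with 14 bases shared with mt-Nd5. It stood at 103.4, 35.6 and 34.2 CPM in 12w Wt and at 21.5, 16.7 and 19.1 CPM in 12w Tg7. The groups were apart, but the first Wt library, the one with high mitochondrial ribosomal RNA, was far above the other 2. The log2 fold change was -1.58 ± 0.37 (adjusted p = 0.00687), and without that library -0.89 (0.0172). Per 1000 counts of the other mitochondrial genes there were 1.702 of mt-Nd6 in that library and 0.714 and 0.659 in the other 12w Wt libraries.

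**Figure D3:**
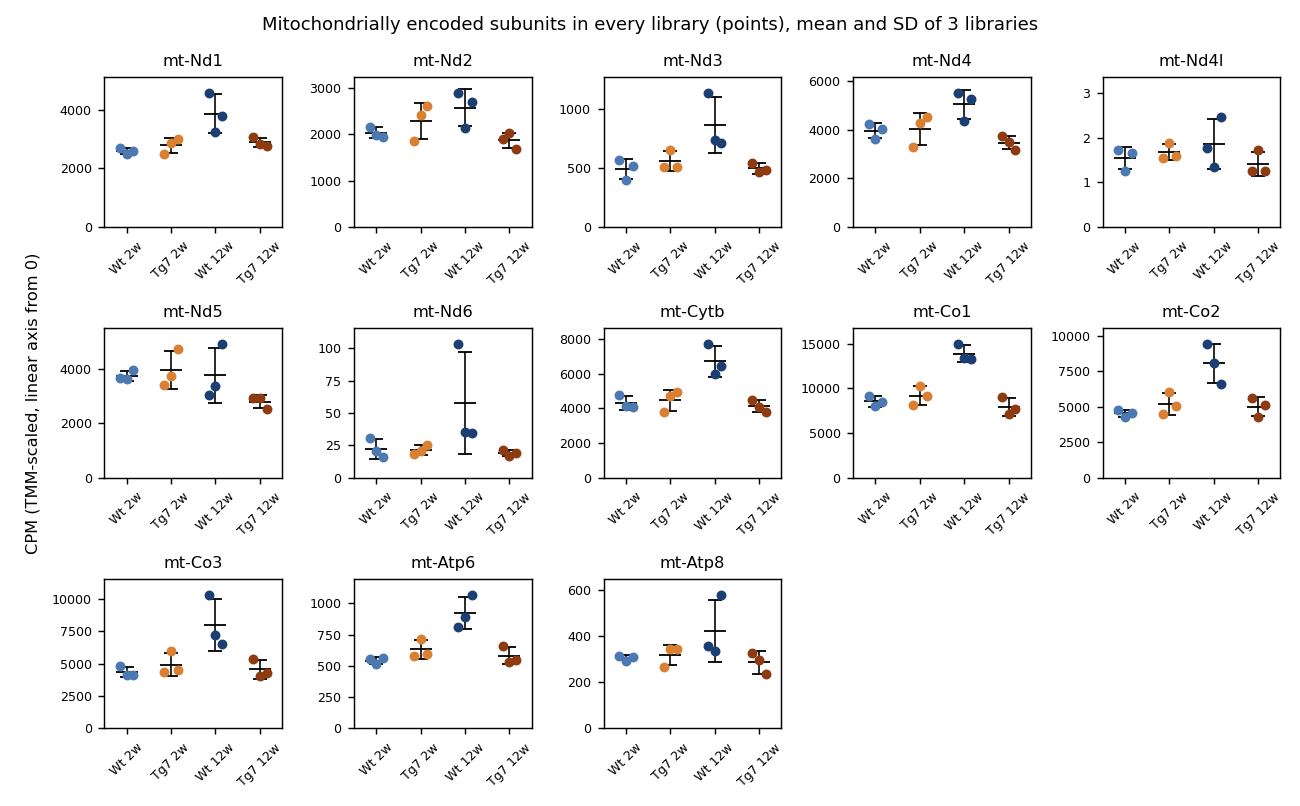
Level of each of the 13 mitochondrial genes (CPM on TMM-scaled library sizes, linear axes from 0) by library in 2w Wt, 2w Tg7, 12w Wt and 12w Tg7 (points; bars are the mean ± SD, n = 3). At 12w the Tg7 libraries lie below the Wt libraries for 12 genes, as for mt-Co1 with means of 13900 in Wt and 7926 in Tg7. The first 12w Wt library stands out for mt-Nd6 at 103.4.

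The summed β-cell markers were lower in Tg7 at both ages, whereas the mitochondrial genes were lower at 12w alone. The 6 markers summed to 195000 to 478000 CPM in Wt and 99600 to 105000 CPM in Tg7 at 12w, with 4 of the 6 lower in the test, while at 2w, where no mitochondrial gene passed it, 5 of the 6 were lower. The part of cell composition in the mitochondrial difference was not tested. Sequences at least 95% identical over 100 or more bases lie elsewhere in the genome for 10 of the 13 mitochondrial genes, the exceptions being mt-Nd1, mt-Nd6 and mt-Cytb, so their reads can be shared with nuclear copies. Without the first 12w Wt library 10 mitochondrial genes fell, and without the second 12w Tg7 library 5 did. Over all genes 1990 and 1014 fell in these fits, against 1783 in the full fit.

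Ndufa1 was the nuclear gene that rose. It encodes a small X-linked accessory subunit (NCBIM37 chrX:34727583-34731158) needed to assemble complex I. It stood at 73.2, 71.7 and 56.3 CPM in 12w Wt and 128.2, 120.5 and 113.4 CPM in 12w Tg7. The groups were far apart, the log2 fold change was 0.85 ± 0.13 (1.80-fold, adjusted p = 0.000392), and all 22 alternatives kept the call with values of 0.74 to 1.31. At 2w the libraries were at 52.7, 60.2 and 47.4 CPM in Wt and 70.4, 72.7 and 65.8 CPM in Tg7, again without overlap, but the log2 fold change of 0.38 ± 0.13 missed the threshold (adjusted p = 0.0721). The difference between the Tg7 effects at the 2 ages, 0.47 ± 0.18, did not pass its test (adjusted p = 0.264). Among 37 nuclear complex I genes it was 1 of 6 with a value above 0 at 12w, and in 12w Tg7 its 288 CPM per kilobase was the highest of them. Stretches at least 95% identical to 34.1% of its transcript lie at 5 other loci.

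Uqcrq encodes a small subunit of complex III (NCBIM37 chr11:53241424-53244333). It was at 149.4, 108.1 and 82.1 CPM in 12w Wt and 67.4, 66.1 and 75.7 CPM in 12w Tg7. The groups did not overlap, and the log2 fold change was -0.70 ± 0.21 (adjusted p = 0.0314). Without the first 12w Wt library it was -0.47 (0.108), and with library size alone -0.22 (0.382). The call was also lost with upper-quartile factors (edgeR adjusted p = 0.0637). Leaving out 12w Tg7 replicate 1, 2 or 3 lost it as well (0.112, 0.105 and 0.0631). At 2w the groups overlapped, at 54.0 to 79.5 CPM in Wt and 49.1 to 76.2 CPM in Tg7. The other 7 nuclear complex III genes did not pass the test at 12w.

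No complex II gene passed a test in any comparison. These are Sdha, the flavoprotein that oxidises succinate, Sdhb, the iron-sulphur protein, and Sdhc and Sdhd, the membrane anchors. Their log2 fold changes at 12w were -0.28, -0.17, -0.17 and -0.23, and at 2w -0.02, 0.29, -0.07 and 0.10. Sdha was at 220.1, 251.1 and 295.4 CPM in 12w Wt and 206.1, 204.8 and 220.2 CPM in 12w Tg7, and the groups overlapped narrowly.

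The 15 nuclear ATP synthase genes gave 0 calls in Tg7 at either age by edgeR, and 0 had an unadjusted p under 0.05. Of all 15961 genes, 4294 at 2w and 5643 at 12w had an unadjusted p under 0.05. Their medians were 0.19 at 2w and -0.23 at 12w. The 3 genes for the identical c subunit of the proton rotor, Atp5g1, Atp5g2 and Atp5g3, had -0.34, 0.20 and -0.24 at 12w. Atpif1, the inhibitor of the ATP synthase, which lies outside the rule, had 0.32 and 0.27 and did not pass the test. Among complex IV genes that missed the threshold at 12w, the values were -0.55 for Cox5a (adjusted p = 0.083), -0.51 for Cox8a (0.0824) and -1.09 for Cox7a1 (0.19). Of the 15 nuclear complex IV genes 13 lay below 0 and 2 above. The higher of these 2 was Cox4i2 at 1.45, also not passing, with means of 0.277 CPM in 12w Wt and 0.822 CPM in 12w Tg7.

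Cox6a2 changed more than any other respiratory chain gene in each of the 3 comparisons. It encodes the heart and muscle form of subunit 6A of complex IV, a small regulatory subunit, and Cox6a1 encodes the form found in most tissues. Cox6a2 lies at NCBIM37 chr7:135348950-135349880 (minus strand), and 10.0% of its exon bases overlap Itgad on the opposite strand. It stood at 27.1, 4.42 and 5.32 CPM in 2w Wt and at 0.107, 0.455 and 0.348 CPM in 2w Tg7. At 12w it was at 87.7, 111.8 and 45.9 CPM in Wt and 0.620, 0.332 and 0.915 CPM in Tg7. The groups were apart at both ages, and in Tg7 the values rest on 2, 7 and 7 counts at 2w and 11, 6 and 16 counts at 12w.

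The log2 fold change of Cox6a2 in Tg7 was -5.34 ± 0.81 at 2w (40.6-fold lower, adjusted p = 0.00102) and -7.02 ± 0.74 at 12w (130.2-fold lower, 1.99e-05). All 22 alternatives kept both calls, with ranges of -5.74 to -4.01 and -7.68 to -6.56. In Wt islets it rose with age by 2.73 ± 0.55 (adjusted p = 0.00463), a call kept under 21 of 21 alternatives (2.33 to 4.06). The difference between the Tg7 effects at the 2 ages, -1.68 ± 1.34, did not pass its test (adjusted p = 0.62). Both Tg7 comparisons and the age comparison share Wt libraries.

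Cox6a1 did not pass the test in any of them. At 2w it was at 117.8, 112.0 and 98.3 CPM in Wt and 101.0, 122.2 and 158.0 CPM in Tg7, and at 12w at 189.9, 148.3 and 104.1 CPM in Wt and 115.2, 115.0 and 127.4 CPM in Tg7. The groups overlapped, with log2 fold changes of 0.22, -0.30 and, with age, 0.43. Per kilobase of exon, Cox6a2 made up 33%, 44.6% and 32.0% of the pair in 12w Wt and 19.7%, 4.04% and 5.46% in 2w Wt. In Tg7 it made up 0.247% ± 0.142 at 2w and 0.546% ± 0.228 at 12w (SD, n = 3). The share is taken within a library. The summed skeletal muscle markers stayed at 4.47 to 8.82 CPM in all libraries, with Ckm, Myh1, Myh4 and Tnnt3 each at or below 0.28 CPM. The summed β-cell markers were lower in Tg7 at both ages. At 2w they were at 109000 to 178000 CPM in Wt and 27000 to 52000 CPM in Tg7. At 12w they were at 195000 to 478000 CPM in Wt and 99600 to 105000 CPM in Tg7. The parts of muscle and β-cell content in the Cox6a2 difference were not tested.

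**Figure D4:**
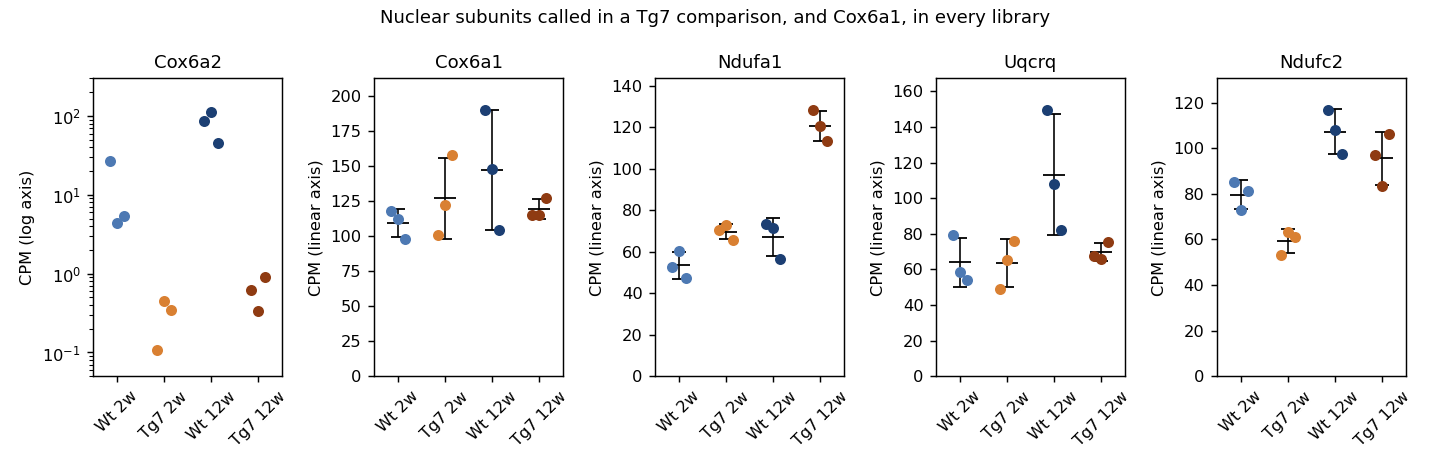
Level of Cox6a2 (log axis), Cox6a1, Ndufa1, Uqcrq and Ndufc2 (linear axes from 0) in CPM on TMM-scaled library sizes, by library in the 4 groups (points; bars on the linear axes are the mean ± SD, n = 3). Cox6a2 is at 45.9 to 111.8 CPM in 12w Wt and 0.332 to 0.915 CPM in 12w Tg7. Cox6a1 overlaps between groups, and Ndufa1 is higher in the 12w Tg7 libraries than in any other.

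The other alternative subunits were minor forms in every group. Cox4i2, the form of subunit 4 known from lung and hypoxia, made up 0.641%, 0.162%, 0.118% and 0.349% of the pair with Cox4i1 per kilobase in 2w Wt, 2w Tg7, 12w Wt and 12w Tg7. Cox6b2, a testis form, made up 0.687%, 1.17%, 0.173% and 0.206% of its pair with Cox6b1. Cox7a1, a muscle form, made up 3.42%, 2.74%, 2.79% and 1.76% of its pair with Cox7a2, and Ndufa4l2 1.64%, 1.39%, 0.794% and 1.27% of its pair with Ndufa4. None of these 4 passed the test in Tg7 at either age.

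In Wt islets, genes of both genomes rose between 2 and 12 weeks, 8 of 13 mitochondrial and 15 of 82 nuclear ones. Both counts and the nuclear median depended on single libraries and on the scaling. Of 82 nuclear genes 15 rose and 1 fell, where 7.9% of all genes tested rose and 7.91% fell, and of 13 mitochondrial genes 8 rose and 0 fell. The median log2 difference was 0.37 over nuclear and 0.64 over mitochondrial genes, against 0.04 over all genes, and with library size alone it was -0.05, a change of sign, and 0.23. With TMM factors 75 of 82 nuclear and 13 of 13 mitochondrial genes lay above 0. Groups did not overlap for 24 nuclear and 10 mitochondrial genes, and the share of all genes without overlap was not counted. By complex, 6 of 37 complex I genes rose, 0 of 4 of complex II, 1 of 8 of complex III, 4 of 15 of complex IV and 4 of 15 of complex V. The 12w Wt libraries are also the controls of the 12w Tg7 comparison, so a high or low 12w Wt library moves both with opposite sign.

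Among the nuclear genes that rose with age after Cox6a2, Atp5k (0.91 ± 0.26, adjusted p = 0.0283), Atp5l (0.86 ± 0.18, 0.0065) and Atp5e (0.84 ± 0.26, 0.0391) belong to the ATP synthase. Atp5k and Atp5l encode subunits e and g, which hold ATP synthase dimers together, and Atp5e a subunit of the central stalk. Atp5l, whose promoter is shown above, was at 128.7, 113.1 and 100.8 CPM in 2w Wt and at 274.3, 195.8 and 151.5 CPM in 12w Wt. Atp5k was at 30.3, 32.0 and 21.1 CPM and at 74.1, 49.5 and 33.7 CPM. The groups of both genes were apart, narrowly for Atp5k, and those of Atp5e overlapped. Of 21 alternatives, 14 kept the Atp5k call, 19 that of Atp5l and 8 that of Atp5e. Sequences at least 95% identical lie at 11 other loci for Atp5l, over 96.3% of its transcript, and at 1 for Atp5k, over 82.7%.

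Of complex I, the accessory subunits Ndufc1 (0.83 ± 0.25, adjusted p = 0.0337), Ndufa7 (0.68, 0.0198), Ndufa2 (0.66, 0.0275), Ndufb5 (0.65, 0.0199), Ndufs5 (0.55, 0.0282) and Ndufc2 (0.43, 0.0348) rose. Ndufs5, the third gene whose promoter is shown, was at 50.4, 36.9 and 36.5 CPM in 2w Wt and at 64.5, 64.9 and 51.7 CPM in 12w Wt. The groups were narrowly apart. Of complex III, Uqcrq rose by 0.82 ± 0.22 (adjusted p = 0.0196). Of 21 alternatives, 16 kept the call of Uqcrq, 16 that of Ndufa7, 16 that of Ndufb5 and 14 that of Ndufa2. The calls of Ndufc1 and Ndufs5 were each kept under 13. That of Ndufc2 was kept under 9, with values of 0.02 to 0.49.

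Of complex IV, besides Cox6a2, Cox8a (0.72, adjusted p = 0.0274), Cox7a2 (0.69, 0.0347) and Cox7a2l (0.69, 0.0113) rose. The calls of Cox8a and Cox7a2 were kept under 15 and 10 of 21 alternatives. Cox7a2l is described as a factor that joins complexes III and IV into a supercomplex, which was not measured here. It was at 117.8, 93.5 and 86.8 CPM in 2w Wt and 152.9, 153.2 and 173.3 CPM in 12w Wt. Its 12w libraries lay well above its 2w libraries, and, unlike Atp5l and Atp5k, it was not lowest in 12w Wt replicate 4. The call was kept under 18 of 21 alternatives, and lost with library size alone and without 2w Wt replicate 2 or 3. The ATP synthase gene Atp5j2 rose by 0.57 (0.0239), a call kept under 15 of 21 alternatives. Cox4i2 was the nuclear gene that fell, by 2.19 on the log2 scale (adjusted p = 0.043), from 34, 12 and 23 counts in 2w Wt to 1, 3 and 7 counts in 12w Wt. Its groups did not overlap, but the levels are at most 2.02 CPM, and the call was kept under 11 of 20 alternatives.

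Of the mitochondrial genes, mt-Co2 (0.83 ± 0.18, adjusted p = 0.00609), mt-Co3 (0.87 ± 0.20, 0.00989), mt-Co1 (0.70 ± 0.16, 0.00962), mt-Atp6 (0.77 ± 0.14, 0.0026), mt-Cytb (0.64 ± 0.16, 0.0157), mt-Nd3 (0.81 ± 0.19, 0.0118), mt-Nd1 (0.58 ± 0.15, 0.0184) and mt-Nd6 (1.35 ± 0.36, 0.0221) rose with age. Those that did not pass the test were mt-Atp8 (0.47, 0.12), mt-Nd2 (0.34, 0.171), mt-Nd4 (0.35, 0.161), mt-Nd4l (0.27, 0.664) and mt-Nd5 (0.01, 0.98). In 2w Wt, mt-Co1 was at 9189, 7984 and 8496 CPM, below each of the 12w Wt libraries given above. Without the first 12w Wt library mt-Nd6 had 0.65 (0.0934), and its call was lost. The calls of the mitochondrial genes that rose were kept under 16 (mt-Nd1) to 20 (mt-Co2) of 21 alternatives. With only the Wt libraries in the edgeR fit, the call of mt-Atp6 alone was kept.

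The count of nuclear genes that rose with age moved with single libraries, and so did the count over all genes. Without 12w Wt replicate 4, the one with low nuclear respiratory chain genes and low short coding genes, 43 rose, and without replicate 1 it was 3. It was 2 without 2w Wt replicate 2 and 2 without 2w Wt replicate 3, and 6 without 12w Tg7 replicate 1, which enters through the shared spread. Over all genes 1261 rose in the full fit, 1873 without 12w Wt replicate 4 and 1076 without replicate 1. That count was 562 and 564 without 2w Wt replicates 2 and 3, and 914 without 12w Tg7 replicate 1. The mitochondrial count was 8 and 7 without 12w Wt replicates 4 and 1, and 2 and 4 without 2w Wt replicates 2 and 3. At 12w, leaving out Wt replicate 4 raised the nuclear genes lower in Tg7 from 2 to 15 and left the mitochondrial count at 8. Over all genes the count lower in Tg7 went from 1783 to 1769.

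Transcript length moved with the age difference. Over protein-coding genes the median log2 difference with age was 0.36 for exon lengths under 500 bases, 0.33 for 500 to 1000, 0.18 for 1000 to 2000, 0.07 for 2000 to 4000 and -0.05 above 4000. In the same classes the nuclear respiratory chain genes, most of which are short, had medians of 0.41 (3 genes), 0.44 (29), 0.38 (25), 0.28 (19) and 0.17 (6). Of 604 tested protein-coding genes under 1000 bases, 85 (14.1%) rose with age. The members' medians lay above those of coding genes in each class. At 12w in Tg7 the members' medians ran from -0.15 to -0.19 in these classes and those of coding genes from -0.06 to 0.03. The part of length in these results was not tested beyond a fit with length offsets, in which 14 nuclear and 6 mitochondrial genes rose with age and 7 nuclear and 10 mitochondrial genes fell in 12w Tg7. Over the 14663 genes of that fit, 1442 rose with age and 1976 fell in 12w Tg7. In that fit the age median fell from 0.37 to 0.22 over nuclear and from 0.64 to 0.45 over mitochondrial genes, and relative to all genes from 0.32 to 0.17 and from 0.59 to 0.40.

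**Figure D5:**
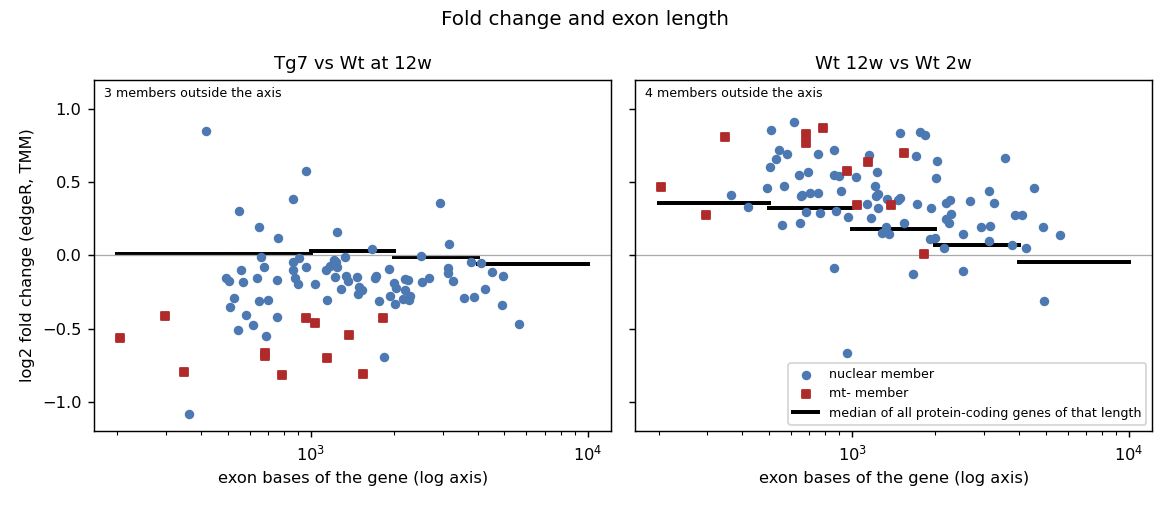
Log2 fold change of the nuclear (circles) and mitochondrial (squares) respiratory chain genes against exon length (log axis) for Tg7 against Wt at 12w and for Wt 12w against 2w, with black lines for the median of protein-coding genes in each length class. At 12w 3 and with age 4 genes lie outside the axis. With age the coding medians fall from 0.36 for the shortest to -0.05 for the longest genes, and most nuclear members lie above them. These heights hold for TMM factors, since with library size alone the nuclear median is 0.31 for Tg7 and -0.05 for age.

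Whether the Tg7 effect differed between ages was tested directly. Of the mitochondrial genes 1 of 13, mt-Atp6, had a lower effect at 12w than at 2w, where 0.307% of all genes did, with log2 effects of 0.22 at 2w and -0.67 at 12w and a difference of -0.89 ± 0.20 (adjusted p = 0.0496). Of the 82 nuclear genes 0 passed in either direction by edgeR, where 0.871% of all genes had a higher effect and 0.307% a lower one. In the same test 12 of the 82 and 2313 of all 15961 genes had an unadjusted p under 0.05. The median difference was -0.75 over mitochondrial and -0.36 over nuclear genes, against -0.03 over all genes. Next to mt-Atp6 stood mt-Co1 (-0.91 ± 0.23, 0.0746), and mt-Nd6 had -1.52 ± 0.51 (0.194). DESeq2 called 6 mitochondrial genes, with 216 lower over all genes, and the mt-Atp6 call of edgeR was kept under 8 of 21 alternatives.

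Genes that serve the chain without being subunits of it were counted in 7 lists. Over all genes tested, 6.07% rose and 4.55% fell in 2w Tg7, 12.5% and 11.2% in 12w Tg7, and 7.9% and 7.91% with age. An unadjusted p under 0.05 by edgeR was found for 4294 of 15961 genes in 2w Tg7. Of 52 assembly factors 0 passed at 2w by edgeR (6 at an unadjusted p under 0.05) and 3 (5.77%) fell in 12w Tg7, namely Coa7 (-0.80, adjusted p = 0.00299), Ndufaf4 (-0.55, 0.0226), which help to build complexes IV and I, and Ttc19 (-0.44), a factor of complex III. With age 8 (15.4%) rose and 1 fell, with Atpaf1, a chaperone for the ATP synthase catalytic head, at 0.97 (0.000584) and Higd1a at -0.77 (0.0182). Of 75 mitochondrial ribosomal protein genes 0 passed at 2w by edgeR (7 at an unadjusted p under 0.05), 4 (5.33%) fell in 12w Tg7, including Mrps12 (-1.01, 0.0023) and Mrpl50 (-0.53, 0.0109), and 10 (13.3%) rose with age. Of 19 import genes, Tomm20 (-0.53, 0.0182) and Timm23 (-0.40, 0.0151), parts of the outer and inner membrane translocases, fell in 12w Tg7 (10.5%) and 3 rose with age (15.8%).

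Of 19 genes of cytochrome c and ubiquinone, Coq8a and Etfb were higher in Tg7 at both ages, and Coq10a was lower at both. At 12w, with Gpd2 also lower, that is 10.5% in each direction, near the 12.5% and 11.2% of all genes. Coq8a, a regulator of ubiquinone synthesis, had 1.04 (adjusted p = 0.00277) and 0.70 (0.0133), Etfb, which passes electrons from fatty acid oxidation towards ubiquinone, 0.81 (0.0346) and 0.69 (0.0387), and Coq10a, a ubiquinone-binding protein, -0.71 (0.019) and -0.90 (0.00217). Gpd2, which feeds electrons from cytosolic NADH into the chain, fell at 12w (-0.63, 0.0423). Cytochrome c itself (Cycs) and cytochrome c1 (Cyc1) did not pass the test, with -0.14 and -0.05 at 2w and -0.23 and -0.17 at 12w.

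Of 26 genes for replication and expression of mitochondrial DNA, Top1mt, the mitochondrial topoisomerase, rose in Tg7 at both ages (0.99, adjusted p = 0.0328, and 0.87, 0.0338), and Fastkd2, an RNA-binding factor, fell at 12w (-0.50, 0.0476), 3.85% in each direction where 12.5% and 11.2% of all genes passed. The RNA polymerase Polrmt (-0.21 and -0.13) and the packaging factor Tfam (0.09 and 0.13) did not pass the test. Of 12 regulators, 0 passed at 12w in Tg7 by edgeR or at an unadjusted p under 0.05, and Ppara rose at 2w (2.16, 0.0408). Nrf1 (-0.05 and -0.10), Gabpa (0.19 and 0.00), Esrra (-0.03 and 0.06) and Ppargc1b (-0.28 and -0.69) did not pass at 2w and 12w.

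Ppargc1a, the coactivator that drives mitochondrial biogenesis, was at 3.09, 3.904 and 2.29 CPM in 2w Wt and 8.57, 5.87 and 10.0 CPM in 12w Wt. The groups were apart and the gene rose with age by 1.40 ± 0.30 (adjusted p = 0.00672). In Tg7 it was at 5.02, 4.42 and 7.30 CPM at 2w (0.86, 0.0793) and 4.51, 6.31 and 5.21 CPM at 12w (-0.61, 0.154), and neither passed the test. Esrrg, a nuclear receptor that works with it, rose with age by 1.33 (0.0115).

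Of 14 genes taken as markers of mitochondrial content, Ucp2 rose in Tg7 at both ages while Hspa9 (-0.81, adjusted p = 0.0373), Vdac1 (-0.53, 0.00941) and Cs, citrate synthase (-0.40, 0.0161), fell at 12w. That is 7.14% higher and 21.4% lower at 12w, where 12.5% and 11.2% of all genes were. Ucp2 encodes an inner membrane carrier known to lower glucose-stimulated insulin secretion. It was at 268.4, 210.2 and 213.6 CPM in 2w Wt and 344.3, 392.2 and 313.5 CPM in 2w Tg7. At 12w it was at 471.5, 325.8 and 280.0 CPM in Wt and 631.8, 627.2 and 553.4 CPM in Tg7. The groups were apart at both ages (0.60 ± 0.18, adjusted p = 0.0459, and 0.75 ± 0.18, 0.00805), opposite in direction to the mitochondrial genes at 12w. At 12w the medians of the 7 lists lay between -0.26 (import) and -0.02 (regulators), against -0.67 for the mitochondrial and -0.16 for the nuclear respiratory chain genes.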

How the data were processed

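Islet RNA of 12 libraries was sequenced by the authors as paired-end reads, trimmed with Trimmomatic, aligned to NCBIM37 (mm9) with TopHat2 2.0.11 and counted per gene with featureCounts, and the deposited values are these raw read counts. Neither the labels nor the methods state the strand setting or the treatment of multi-mapping reads. Symbols came from the annotation of the same build (37205 of 37991 genes). Genes were kept with edgeR 4.0.16 filterByExpr (minimum count 10, minimum total 15), leaving 15961, and the 4 group means were fitted together with TMM factors and tested by quasi-likelihood F tests (8 residual degrees of freedom), with Benjamini-Hochberg adjustment over all 15961 genes and a threshold of 0.05. "Rose", "fell" and "passed" refer to that test. SE is the size of the log2 fold change over the square root of F. CPM per kilobase uses union exon length. Alternatives were DESeq2 1.42.0, other scalings and filters, a replicate block and each library left out. The script was tested on simulated counts. Copies were sought with BLAST+ 2.17.0 at 95% identity over 100 bases. Same-numbered libraries did not deviate together (correlations of -0.17 to -0.01), so replicate numbers were not used as pairs. Named genes were all mitochondrial genes, up to 5 nuclear genes with the highest and 5 with the lowest passing fold changes per comparison, the alternative subunits, the Sdh genes and, per related list, up to 2 passing genes in each direction, with others (such as Cox5a and Cox8a) added after their values were seen. The third miR-7 seed match is not reported here. The genes and lists were chosen with earlier results of these data known.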

Additional observations from a re-analysis of the deposited data

Results flagged for a closer look

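The Tg7 effect on mt-Atp6, subunit a of the ATP synthase, differed between the ages by the test of the difference itself, by -0.89 ± 0.20 on the log2 scale (edgeR adjusted p = 0.0496). Its libraries were at 552.5, 514.4 and 560.8 CPM in 2w Wt and 578.9, 717.5 and 598.9 CPM in 2w Tg7, an effect of 0.22, and at 12w the effect was -0.67. Under all 21 alternatives the difference stayed below 0, nearest to 0 at -0.62 with library size alone, and 8 of them kept the call. It was lost when any 2w Wt, 2w Tg7 or 12w Tg7 library or 12w Wt replicate 2 was left out. The other 12 mitochondrial genes had a difference below 0 that did not pass the test.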

How the results depend on the processing

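Of 409 counts of calls and gaps between the mitochondrial and nuclear medians computed under alternative settings, 324 stayed the same (within 1.5 times the reported count or 1 SD), 84 moved and 1 gap reversed. The nuclear medians themselves, not among these values, changed sign at 12w and with age with library size alone. Of 3933 values for single genes, 3678 kept their side of the threshold, 183 lost and 71 gained a call, and 1 reversed, Atp5j2 at 12w, whose log2 fold change of -0.04 became 0.42 with library size alone. With library size alone, 7 nuclear genes rose and 1 fell in 2w Tg7, where 1670 and 317 of all genes did. At 12w 13 nuclear genes rose, 1 fell and 1 mitochondrial gene fell, where 5198 of all genes rose and 360 fell. With age 1 nuclear gene rose and 4 fell and 3 mitochondrial genes rose, against 325 rises and 3795 falls over all genes. The difference between ages gave 0, where 323 of all genes were higher and 24 lower. With upper-quartile factors 1 nuclear gene rose and 1 fell at 2w, and 2 rose and 1 fell at 12w. Over all genes 1204 rose and 623 fell at 2w, and 2418 rose and 1317 fell at 12w. DESeq2 gave 2 nuclear genes higher at 2w, 24 higher with age and 6 mitochondrial genes for the difference between ages. Over all genes it called 1488 higher at 2w, 1680 higher with age and 216 lower for the difference. With only the compared libraries in the edgeR fit, 2 nuclear genes were higher at 2w, where 1163 of all genes were. With age such a fit gave 2 nuclear genes and 1 mitochondrial gene that rose and 0 nuclear genes that fell. Over all genes 493 rose and 790 fell with age. Without a filter, and with the stricter one, 1 nuclear gene rose and 1 fell at 2w and 0 nuclear genes fell with age. Over all genes these fits gave 1291 and 1026 rises and 763 and 713 falls at 2w, and 1288 and 1270 falls with age. Without a filter the difference gave 3 mitochondrial genes, where 181 of all genes had a lower effect. With the replicate number as a block, 2 nuclear genes rose and 1 fell at 2w, where 837 and 785 of all genes did. At 12w 7 nuclear and 5 mitochondrial genes fell in that fit, where 881 of all genes did. Its mitochondrial minus nuclear median was -0.20 at 12w. The difference between ages gave 0 with this block, where 81 of all genes were higher and 27 lower. The samples share only a number, with correlations of -0.0214, -0.167 and -0.0343 at 2w and -0.0894 and -0.0112 at 12w. Length offsets, chosen after seeing the data, gave 1 nuclear gene higher at 2w and 7 lower at 12w. Over all genes of that fit 1116 were higher at 2w and 1976 lower at 12w. The cause of these shifts was not tested. Leaving out 1 library at a time gave, at 2w, 0 to 3 nuclear genes higher, 1 to 2 lower and a mitochondrial minus nuclear median of -0.17 to 0.02, which reversed without 2w Tg7 replicate 3. At 12w it gave 1 to 2 nuclear genes higher, 1 to 15 lower, 5 to 11 mitochondrial genes lower and a median gap of -0.62 to -0.27. With age it gave 2 to 43 nuclear genes higher, 0 to 2 lower, 2 to 8 mitochondrial genes higher and a gap of 0.16 to 0.37. For the difference between ages it gave 0 to 6 nuclear and 0 to 5 mitochondrial genes lower. Over all genes these fits gave 1012 to 2048 lower at 12w and 562 to 1873 higher with age. They gave 377 to 1613 higher at 2w and 17 to 167 lower for the difference between ages. Precision is limited by 3 pooled libraries a group, with a common biological coefficient of variation of 0.212.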
